A study of Mus musculus with 12 samples.

Results

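Apelin, the vascular endothelial growth factors (VEGF) and the angiopoietins are secreted signals that guide the growth and upkeep of blood vessels. Of their genes, 9 were followed through 12 mouse heart libraries: the apelin ligand Apln (gene ID 30878) and its receptor Aplnr (23796), the VEGF ligands Vegfa (22339), Vegfb (22340) and Vegfc (22341), the VEGF receptors Kdr (16542) and Flt1 (14254), and the angiopoietin ligands Angpt1 (11600) and Angpt2 (11601). They were picked by symbol from the 17397 genes of the deposited table of estimated counts, each symbol had 1 row, and all 9 passed the filter on low counts. The choice was made with earlier results of these data known. The hearts came from wild-type C57BL/6J males, 8 weeks old when the study began, in 4 groups of 3 libraries. Control mice were caged without exercise and carry the treatment label Saline. Trained mice ran on a treadmill 5 days a week for 4 weeks, with sessions after the first week of 35 min at 12 m/min following 5 min at 6 m/min. Tumour mice were not trained and were injected, in a tail vein and from week 2, with 100000 cells of the mouse melanoma line B16F10. Tumour trained mice received both. The labels do not say that the libraries of a group came from separate mice, so the p-values measure the spread between these libraries, which may be technical.

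Apelin binds a G-protein-coupled receptor, the product of Aplnr, which is found on endothelial cells and heart muscle. VEGF-A signals to endothelial cells mainly through the receptor VEGFR2, the product of Kdr, whereas VEGFR1, the product of Flt1, binds the same ligand tightly and signals weakly, and is also made in a soluble form that traps it. VEGF-B binds VEGFR1, and VEGF-C acts mostly on lymphatic vessels. Angiopoietin 1 activates the endothelial receptor TIE2 and holds vessels stable, and angiopoietin 2 mostly opposes it. Heart muscle cells are a main source of VEGF-A and VEGF-B in the heart.

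The promoters of the ligands and receptors that the comparisons turn on are shown first. RefSeq (GRCm38.p6) gave a promoter for 6 of the 9 genes, and Aplnr, Angpt1 and Angpt2 were not matched. The 250 bases upstream of the gene start are printed for Apln (chrX:48034854-48035103, minus strand) and Vegfa (chr17:46032378-46032627, minus strand, the 5′-most of 2 entries), the ligands called in the tumour comparison, and for Kdr (chr5:75978456-75978705, minus strand) and Flt1 (chr5:147726012-147726261, minus strand), the receptors whose ratio differed between the groups. Capitals mark 4 motifs searched on both strands: the core of the hypoxia response element (ACGTG or GCGTG), the GC box (GGGCGG), the cAMP response element (TGACGTCA) and the TATA box (TATAAA).
Apln: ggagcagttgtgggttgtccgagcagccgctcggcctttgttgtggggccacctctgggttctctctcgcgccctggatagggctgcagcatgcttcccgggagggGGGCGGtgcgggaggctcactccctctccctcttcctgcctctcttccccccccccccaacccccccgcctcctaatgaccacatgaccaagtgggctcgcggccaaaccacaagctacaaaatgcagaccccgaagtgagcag
Vegfa: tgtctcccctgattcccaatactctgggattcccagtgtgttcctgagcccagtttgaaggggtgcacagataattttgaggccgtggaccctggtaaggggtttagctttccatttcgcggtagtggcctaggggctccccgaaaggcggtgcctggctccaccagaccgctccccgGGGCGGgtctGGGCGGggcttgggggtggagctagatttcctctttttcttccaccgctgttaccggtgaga
Kdr: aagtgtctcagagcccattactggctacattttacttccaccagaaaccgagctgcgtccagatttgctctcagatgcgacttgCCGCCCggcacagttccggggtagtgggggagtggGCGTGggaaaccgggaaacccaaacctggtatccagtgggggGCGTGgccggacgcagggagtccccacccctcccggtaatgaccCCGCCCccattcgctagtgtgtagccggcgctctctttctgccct
Flt1: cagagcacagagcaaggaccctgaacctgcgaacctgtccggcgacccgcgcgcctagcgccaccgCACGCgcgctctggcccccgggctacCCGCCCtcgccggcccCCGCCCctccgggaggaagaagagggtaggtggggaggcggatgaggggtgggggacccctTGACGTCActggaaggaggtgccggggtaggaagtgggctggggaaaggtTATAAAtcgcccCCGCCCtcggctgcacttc
A GC box stood in all 4 windows, once in Apln, 2 times in Vegfa and Kdr and 3 times in Flt1. The hypoxia core was matched 2 times in Kdr and once in Flt1, and had no match in the windows of Apln and Vegfa. The Flt1 window alone of the 4 held a cAMP response element and a TATA box. Of 32851 RefSeq promoter windows of this length, 38.6% held the hypoxia core, 32.7% a GC box, 1.55% the cAMP response element and 12.4% a TATA box. The other windows, of Vegfb and Vegfc, held 4 and 2 GC boxes, and that of Vegfb also 2 hypoxia cores. These matches are letters in a window and not measured sites. Only these 250 bases were searched, so an element farther upstream or inside the gene would be missed.

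Tumour 1 and tumour 2 held far more melanocyte RNA than any other library, and this touches every comparison with the tumour group. The 9 melanocyte markers summed to 9844 and 5044 CPM (counts relative to library size, as counts per 1e6, scaled with edgeR's trimmed mean of M values) in tumour 1 and 2, to 81.8 in tumour 3 and to between 47.4 and 81.5 in the 9 libraries of the other groups. The marker Pmel by itself stood at 1819 and 895.4 CPM in tumour 1 and 2. In tumour 3 it had 22 counts (2.03 CPM), against 0 to 6 counts (0 to 0.70 CPM) in the 9 libraries of the other groups. The 14 cardiomyocyte markers summed to 28601, 78959 and 140290.5 CPM in tumour 1, 2 and 3, against 142148 to 149315 in the controls. The 16 endothelial markers summed to 979.5, 1892 and 2706 CPM, against 2274 to 2430. The sum of 12 pericyte and smooth muscle markers was 505.4 to 1356 CPM in the tumour group and 1428 to 1666 in the controls. The early response genes separated the controls: 10 of them summed to 373.7 CPM in control 1 and to 1899 and 1937 in control 2 and 3. Tumour 3 is therefore set beside tumour 1 and 2, and tests are repeated without tumour 1 and 2. Those repeats rest on tumour 3 alone, with its spread assumed to be like that of the other groups. In tissue RNA, fewer cells of a type and less RNA per cell cannot be told apart. The libraries are labelled heart, although the extraction protocol speaks of livers: Alb, the albumin gene of liver, reached 3.92 CPM at most, and the cardiac markers stood at the levels just given. Library totals ran from 8843906 to 13344847 counts.

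**Figure D1:**
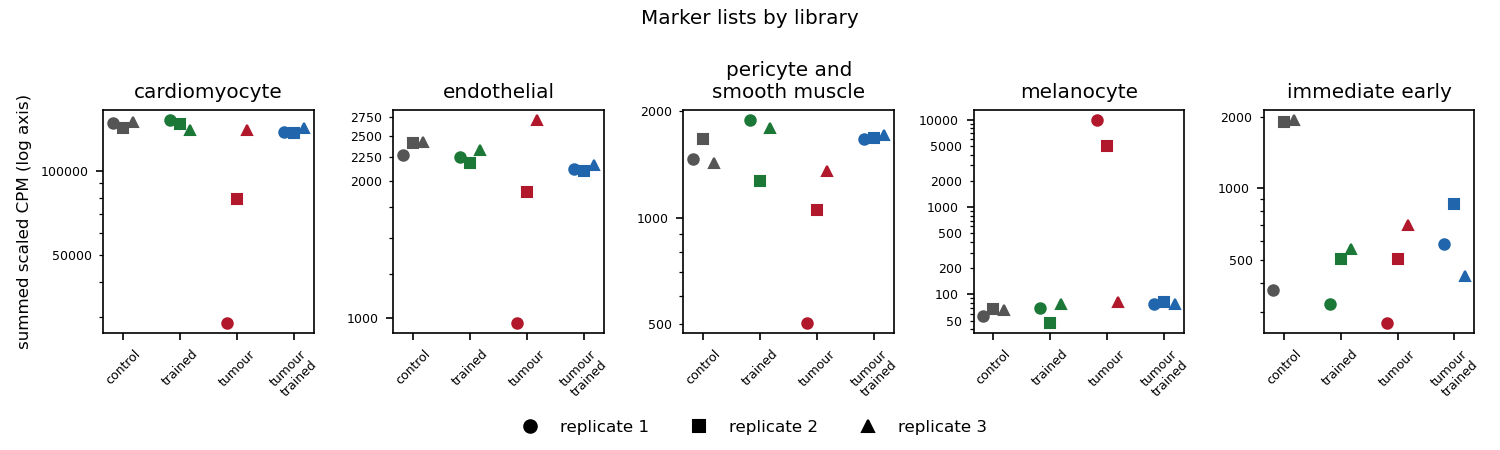
Summed scaled CPM (log axis) of 5 marker lists in each library, by group, with the symbol giving the replicate. Tumour 1 and 2 are high in melanocyte and low in cardiomyocyte markers, tumour 3 is near the other groups in both, and control 2 and 3 are high in early response genes.

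Of the 9 genes, Apln had the largest difference from the controls in tumour 3, the tumour library with few melanocyte transcripts. Apln stood at 38.2, 28.9 and 33.5 CPM in control 1, 2 and 3 and at 33.5, 30.9 and 29.6 in the trained group. It was 16.8, 12.4 and 10.96 CPM in tumour 1, 2 and 3, and 25.5, 20.0 and 29.1 in the tumour trained group. All 3 tumour libraries lay below all 9 others, with tumour 3 the lowest, while tumour trained 3 alone of its group lay above the lowest control. Apln fell by 1.32 ± 0.20 (log2, SE) in tumour against control (edgeR, adjusted p = 0.0322, n = 3 and 3) and rose by 0.89 ± 0.20 in tumour trained against tumour (adjusted p = 0.0357), directions that turned to 0.25 and -0.60 when libraries were scaled to cardiomyocyte genes. The difference of tumour 3 from the control mean (log2) was -1.61 in CPM, -1.55 per unit of cardiomyocyte markers and -1.81 per unit of endothelial markers. Per unit of cardiomyocyte markers, tumour 1 lay above the control mean, at 1.36, and tumour 2 below it, at -0.54. Without tumour 1 and 2, with the lone tumour library assumed to vary like the other groups, the change against control was -1.60 ± 0.24 (edgeR, adjusted p = 0.00888), and the change with training was 1.17 ± 0.24 (adjusted p = 0.0581).

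The receptor Aplnr varied more among the controls than the ligand did. Aplnr stood at 67.95, 32.45 and 21.1 CPM in control 1, 2 and 3, at 57.7, 74.1 and 51.4 in the trained group, at 11.5, 17.9 and 18.1 in the tumour group and at 53.2, 40.7 and 38.65 in the tumour trained group. The tumour libraries were the 3 lowest, but control 3 lay only a little above tumour 3. Control 1, the highest control, was also the control with few early response transcripts, and the part of these in the result was not tested. Aplnr fell by 1.36 ± 0.37 (log2, SE) in tumour against control (edgeR, adjusted p = 0.0490) and rose by 1.48 ± 0.37 in tumour trained against tumour (adjusted p = 0.0369). Scaled to cardiomyocyte genes the changes kept their sign at -0.14 and 0.35. Without tumour 1 and 2 they were -1.16 ± 0.52 (adjusted p = 0.381) and 1.27 ± 0.52 (adjusted p = 0.296), neither past the threshold and both in the same direction. The training change in mice without tumours was 0.59 ± 0.36 (adjusted p = 1), and without control 2 and 3 it turned to -0.16.

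**Figure D2:**
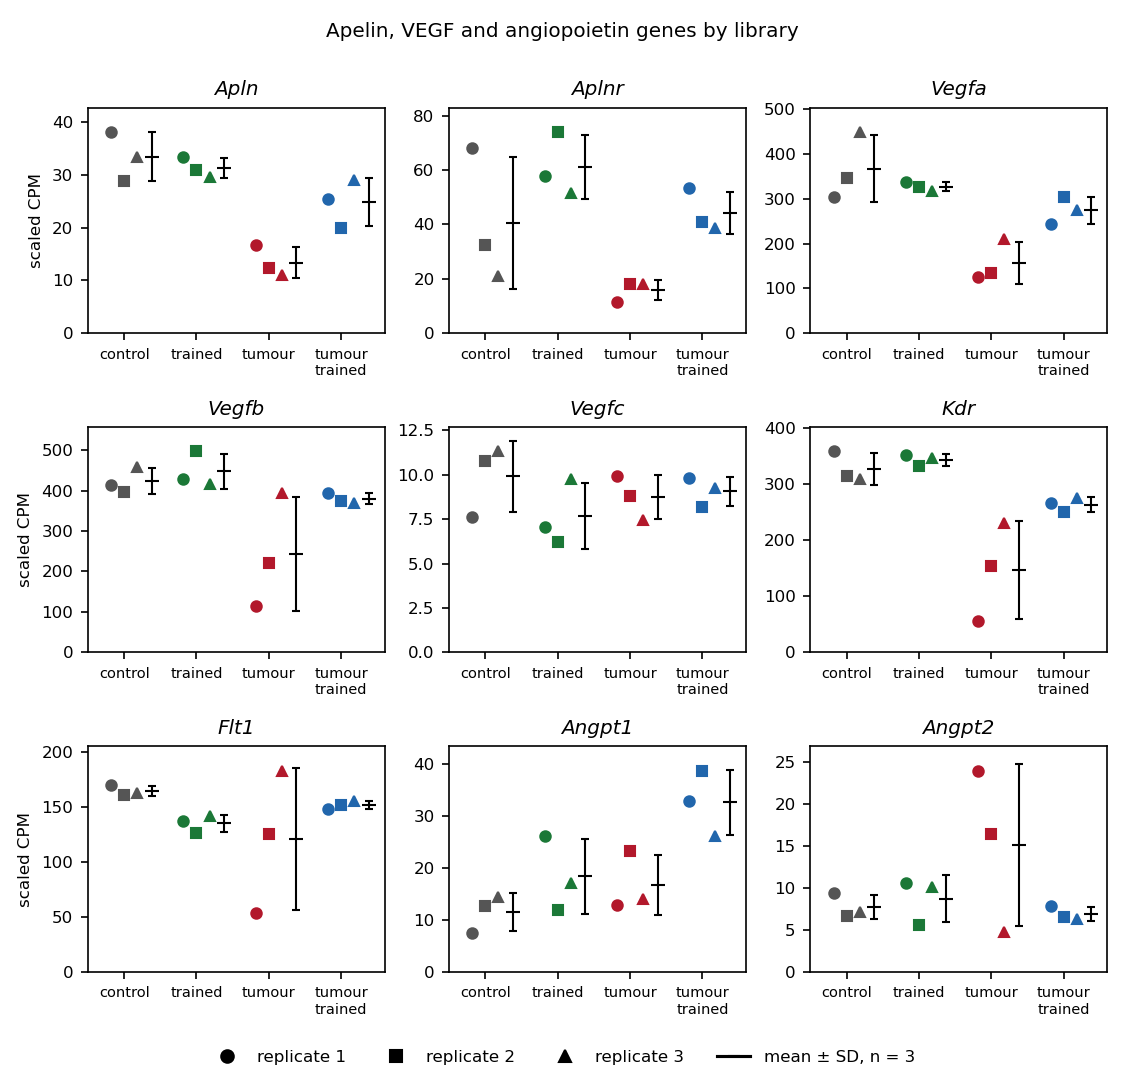
Scaled CPM of the 9 genes in each library, by group, with the mean ± SD over 3 libraries at the right of each group (scaled CPM axes start at 0 and differ between panels). Apln, Aplnr, Vegfa and Kdr are lower in all 3 tumour libraries than in every other library on this scale (the group differences of Apln and Vegfa turn under cardiomyocyte scaling). For Vegfb, Kdr, Flt1 and Angpt2 the tumour libraries are far apart.

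Of the VEGF ligands, Vegfa passed the test over all 12 libraries, and Vegfb and Vegfc did not. Vegfa, the main inducer of vessel growth, stood at 303.9, 347.6 and 450.0 CPM in the controls, at 338.2, 325.9 and 318.5 in the trained group, at 124.4, 134.8 and 209.3 in the tumour group and at 243.0, 303.8 and 275.8 in the tumour trained group. Every tumour library was below every other library, and the highest tumour trained library lay just below the lowest control. Vegfa fell by 1.23 ± 0.22 (log2, SE) in tumour against control (edgeR, adjusted p = 0.0391) and rose by 0.81 ± 0.22 in tumour trained against tumour (adjusted p = 0.0465), changes that went to 0.01 and -0.34 when scaled to cardiomyocyte genes. The values without tumour 1 and 2 were -0.80 ± 0.20 (adjusted p = 0.0911) and 0.37 ± 0.20 (adjusted p = 0.398). Tumour 3 by itself was -0.81 from the control mean in CPM, -0.75 per unit of cardiomyocyte markers and -0.995 per unit of endothelial markers. Per unit of cardiomyocyte markers, tumour 1 lay above the control mean, at 0.80, and tumour 2 below it, at -0.55.

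Vegfb had the same order in the tumour libraries as their cardiomyocyte sums. Vegfb, a VEGFR1 ligand linked to fatty acid handling in muscle, stood at 414.6, 395.7 and 458.2 CPM in the controls, at 428.8, 497.4 and 416.8 in the trained group, at 115.0, 222.0 and 394.9 in tumour 1, 2 and 3 and at 394.9, 375.4 and 368.2 in the tumour trained group. Tumour 3 was just under the lowest control, so the tumour and control libraries did not overlap, yet the change of -0.79 ± 0.33 (log2, SE) did not pass the test (edgeR, adjusted p = 0.121), although it did without tumour 3 (-1.37, adjusted p = 0.00102). It was, without tumour 1 and 2, -0.09 ± 0.13 (adjusted p = 0.887), and scaled to cardiomyocyte genes it turned to 0.16. Vegfc, the lymphatic ligand, was low throughout, at 6.23 to 11.3 CPM in the 12 libraries and at 9.91, 8.82 and 7.46 in tumour 1, 2 and 3, and its groups overlapped in every comparison. Its change in tumour against control was -0.18 ± 0.23 (edgeR, adjusted p = 0.575), and -0.40 ± 0.29 (adjusted p = 0.665) without tumour 1 and 2. Its sign turned with library size alone, with both marker scalings and without control 2 and 3.

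Per kilobase of exon (GENCODE M21 models, an annotation not known to be the one used for counting), the control levels in CPM per kilobase ran from Vegfb at 330.1 ± 25.03 (SD, n = 3) through Vegfa at 104 ± 21.3 and Kdr at 55.2 ± 4.69 to Flt1 at 15.0 ± 0.416. Aplnr at 10.95 ± 6.61 and Apln at 10.6 ± 1.49 did not differ beyond their spread. Vegfc at 4.05 ± 0.813, Angpt1 at 2.70 ± 0.849 and Angpt2 at 2.17 ± 0.401 CPM per kilobase made up the low end, and Angpt1 and Angpt2 lay within their spread of each other.

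The VEGF receptors Kdr and Flt1 had the same order in the tumour libraries but stood differently against the controls. Kdr stood at 359.0, 313.8 and 308.5 CPM in the controls, at 351.8, 331.7 and 346.9 in the trained group, at 55.6, 153.7 and 230.8 in tumour 1, 2 and 3 and at 266.6, 249.7 and 274.9 in the tumour trained group. Flt1 stood at 169.6, 160.9 and 163.0 CPM in the controls, at 136.9, 126.7 and 141.5 in the trained group, at 53.6, 125.5 and 183.2 in the tumour group and at 148.3, 151.5 and 155.1 in the tumour trained group. All tumour libraries lay below the controls in Kdr, while in Flt1 tumour 3 lay above every control. The change of Kdr against control was -1.16 ± 0.37 (log2, SE; edgeR, adjusted p = 0.0689) and that of Flt1 was -0.45 ± 0.32 (adjusted p = 0.309), neither past the threshold over all 12 libraries. Kdr was called lower by DESeq2 (adjusted p = 0.0205), with library size alone (0.0482) and without tumour 3 (0.00157), and Flt1 without tumour 3 (0.0134). They were, without tumour 1 and 2, -0.49 ± 0.12 (adjusted p = 0.0883) and 0.17 ± 0.11 (adjusted p = 0.609). With training in tumour-bearing mice the change of Kdr was 0.85 ± 0.37 (adjusted p = 0.139) and that of Flt1 was 0.33 ± 0.32 (adjusted p = 0.474). Counts per gene do not separate the soluble from the membrane form of VEGFR1.

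The ratio of Flt1 to Kdr, which no scaling can alter, was looked at after the values had been seen, so it is a description with no test. It was 0.473, 0.513 and 0.528 in the controls, 0.389, 0.382 and 0.408 in the trained group, 0.965, 0.817 and 0.794 in tumour 1, 2 and 3 and 0.556, 0.607 and 0.564 in the tumour trained group. The 4 groups did not overlap, and tumour 3, with few melanocyte transcripts, lay beside tumour 2. Against Pecam1, an endothelial adhesion molecule, Kdr was 1.23 to 1.45 in the controls and 0.572, 0.663 and 0.842 in tumour 1, 2 and 3, whereas Flt1 was 0.646 to 0.686 in the controls and 0.552, 0.542 and 0.668 in the tumour libraries. Angpt2 relative to Angpt1 was 0.237, 0.170 and 0.241 in the tumour trained group, below all other libraries, and spread from 0.342 to 1.88 in the tumour group.

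**Figure D3:**
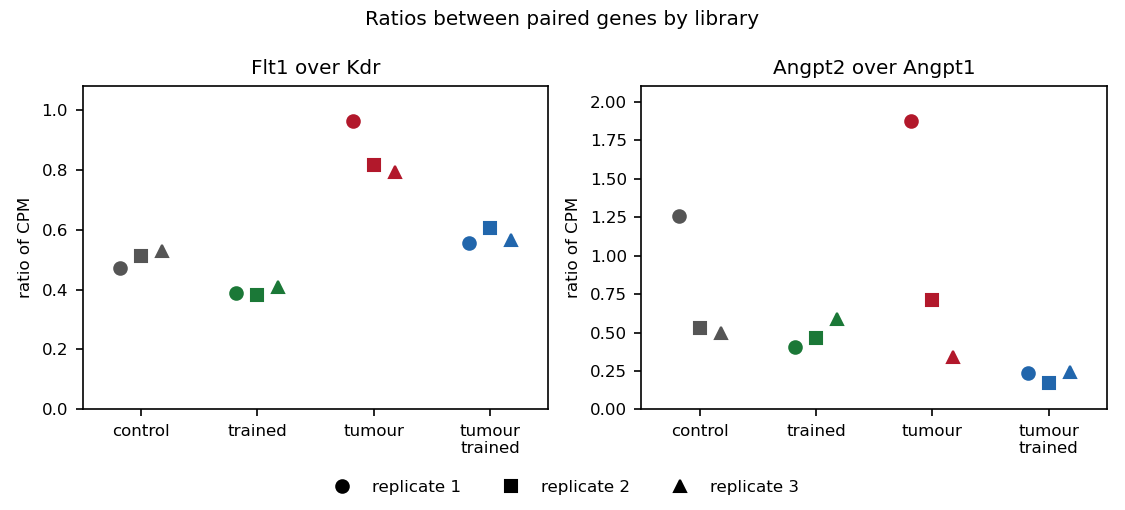
Ratio of scaled CPM of Flt1 to Kdr (left) and of Angpt2 to Angpt1 (right) in each library, by group, with the symbol giving the replicate; both axes start at 0. The Flt1 to Kdr ratio is 0.794 to 0.965 in the tumour libraries and at most 0.607 elsewhere, and the Angpt2 to Angpt1 ratio is lowest in the tumour trained libraries.

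Angpt1, the vessel-stabilising ligand, was highest in the tumour trained group. Angpt1 stood at 7.45, 12.7 and 14.4 CPM in the controls, at 26.1, 11.9 and 17.1 in the trained group, at 12.8, 23.2 and 14.0 in the tumour group and at 32.9, 38.65 and 26.15 in the tumour trained group. Each tumour trained library was above every library of the other groups, although trained 1 at 26.08 CPM was close to the lowest of them at 26.15. The change was 1.50 ± 0.34 (log2, SE) in tumour trained against control (edgeR, unadjusted p = 0.00105, adjusted p = 0.767), 0.83 ± 0.34 against trained (adjusted p = 0.9996) and 0.97 ± 0.34 against tumour (adjusted p = 0.0840), so none passed the threshold over all genes. In a fit of only the tumour trained and control libraries the adjusted p was 0.00276, where 20.4% of 12355 genes were called. The change against tumour without tumour 1 and 2 was 1.20 ± 0.43 (adjusted p = 0.243). Scaled to cardiomyocyte genes it turned to -0.24.

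The highest levels of Angpt2, the opposing ligand, were in the libraries with many melanocyte transcripts. It stood at 9.37, 6.70 and 7.14 CPM in the controls, at 10.6, 5.54 and 10.1 in the trained group, at 24.0, 16.5 and 4.79 in tumour 1, 2 and 3 and at 7.80, 6.57 and 6.30 in the tumour trained group. Tumour 1 and 2 were the 2 highest of the 12 libraries and tumour 3 was the lowest. The change against control was 0.97 ± 0.46 (log2, SE; edgeR, adjusted p = 0.154) with all libraries and -0.68 ± 0.36 (adjusted p = 0.486) without tumour 1 and 2. With training in tumour-bearing mice it was -1.14 ± 0.46 (adjusted p = 0.119), and without tumour 1 and 2 it turned to 0.51 ± 0.36 (adjusted p = 0.535). The part of melanocyte RNA in the level of Angpt2 was not tested.

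Counted over the 9 genes, tumour against control called 3 lower and none higher, where 1.46% of 12778 genes were called lower, 5.33% higher and 6.79% in either direction. The 9 genes, like the pathway lists below, were chosen with earlier results of these data known. The shares therefore describe them and are no test of enrichment. DESeq2 and library size alone each called 4, with Kdr added, where 17.8% and 15.1% of genes were called. Groups did not overlap for 5 of the 9, all lower (Apln, Aplnr, Vegfa, Vegfb and Kdr), where 11.8% of all genes were lower without overlap. The median change of the 9 was -0.79 (log2), beside 0.11 over all genes tested. It was -0.83 for the cardiomyocyte markers, -0.69 for those of pericytes and smooth muscle and -0.58 for the endothelial ones. For fibroblast markers it was -0.23 and for macrophage markers 0.27. Set against the 3 controls, tumour 3 was lower in 7 of the 9 genes and higher in Flt1, where 29.0% and 31.9% of all genes were lower and higher. With tumour 1 and 2 left out, Apln was the 1 member called, and it was lower, where 0.531% of genes were called lower and 1.40% in either direction. With 1 library left out at a time, the members called were 2 without tumour 1 (Apln and Vegfa, where 1.55% of genes were called), 7 without tumour 3 (all but Vegfc and Angpt1, where 53.0% were called), 1 without tumour trained 2 (Apln, where 0.0676% were called) and 0 for each of the other 9 libraries. Leaving out any of those 9 also left 4 to 24 genes called of all genes tested. The adjusted p of Apln in those 9 was 0.0521 to 0.152. These counts hold on the scale used: with cardiomyocyte scaling, under which the median change of all genes went from 0.11 to 1.51, the 2 members called in tumour against control were Angpt1 at 1.82 (adjusted p = 0.0206) and Angpt2 at 2.76 (adjusted p = 0.0208), both higher, where 70.9% of genes were called. Scaled to endothelial genes, with a median of 0.70, no member was called, where 0.282% of genes were.

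Between the tumour trained and the tumour libraries, Apln, Aplnr and Vegfa were called higher and none lower, with Apln and Vegfa turning under cardiomyocyte scaling, where 1.79% of genes were called higher, 7.25% lower and 9.05% in either direction. The groups did not overlap for 5 of the 9, all higher (Apln, Aplnr, Vegfa, Kdr and Angpt1), where 13.5% of all genes were higher without overlap. The median change of the 9 was 0.81, beside -0.04 over all genes. It was 0.76 for the cardiomyocyte markers, 0.50 for those of pericytes and smooth muscle and 0.33 for the endothelial ones. For fibroblast markers it was 0.44 and for macrophage markers -0.38. This comparison shares the tumour libraries with the one before, and the 9 genes were the same ones, chosen with earlier results known. With 1 library left out at a time, the members called were 2 without trained 2 (Apln and Aplnr, where 9.34% of genes were called), 1 without tumour 1 (Apln, where 0.864% were), 7 without tumour 3 (where 49.8% were) and 0 for each of the other 9 libraries, of all genes 3 to 8. When both tumour 1 and tumour 2 were left out no member was called by edgeR, where 0.716% of genes were. The median change of the 9 in that fit was 0.37, with 7 positive and 2 negative, beside -3.7e-04 over all genes.

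**Figure D4:**
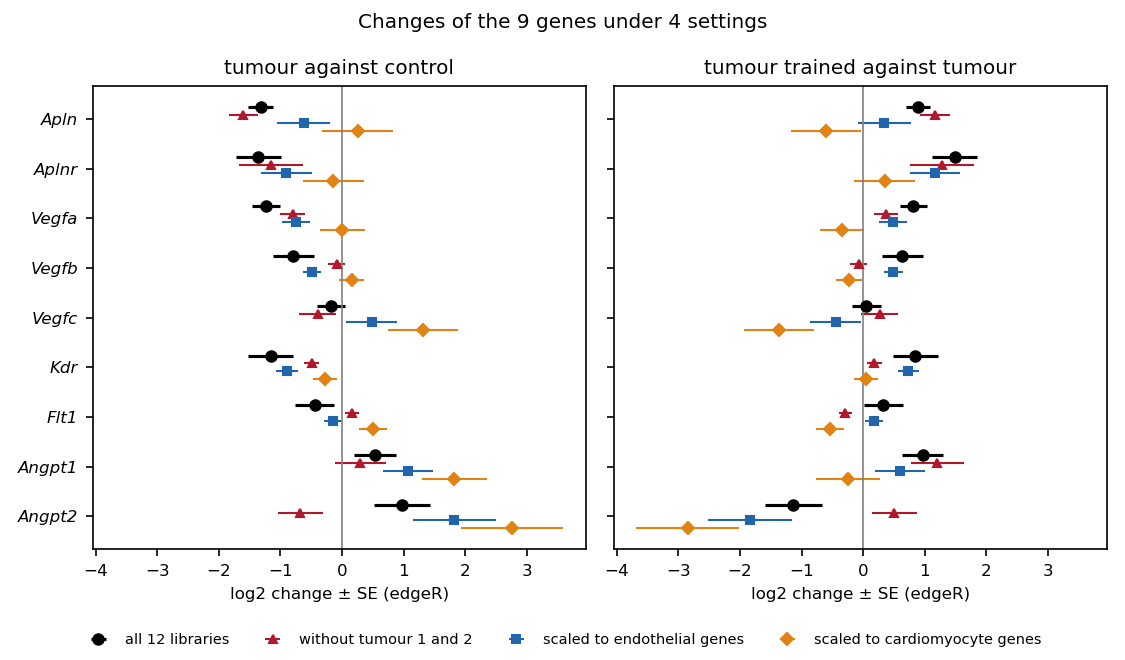
Log2 change ± SE (edgeR) of the 9 genes in tumour against control (left) and tumour trained against tumour (right), with all 12 libraries, without tumour 1 and 2, and scaled to endothelial or to cardiomyocyte genes. Apln keeps its direction without tumour 1 and 2 (-1.60 and 1.17) and turns under cardiomyocyte scaling (0.25 and -0.60), and Angpt2 turns without tumour 1 and 2 (-0.68 and 0.51).

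The 3 comparisons without the untrained tumour group called no member and no other gene in the edgeR fit of 12 libraries, and DESeq2 called 3, 3 and 7 genes and no member. In trained against control 0% of genes were called and 2.18% had an unadjusted p under 0.05, none of them a member. The groups did not overlap for 1 of the 9, Flt1, lower in all 3 trained libraries, where 5.45% of all genes were lower without overlap. Its change was -0.29 ± 0.32 (log2, SE; edgeR, adjusted p = 1). Between the tumour trained and the trained libraries 0% of genes were called, and 1 member (Angpt1) had an unadjusted p under 0.05, where 1.17% of genes had. The groups did not overlap for 6 of the 9: Apln, Vegfa, Vegfb and Kdr were lower, where 8.04% of all genes were, and Flt1 and Angpt1 were higher, where 7.92% were. Between the tumour trained and the control libraries 0% of genes were called, and 2 members (Angpt1 and Apln) had an unadjusted p under 0.05, where 6.46% of genes had. The groups did not overlap for 5 of the 9: Vegfa, Vegfb, Kdr and Flt1 were lower, where 17.4% of all genes were, and Angpt1 was higher, where 21.9% were. In an edgeR fit of these 6 libraries alone, 3 members (Angpt1 higher, Kdr and Vegfa lower) were called, where 20.4% of genes were. In the edgeR fit of 12 libraries, the changes of Apln and Vegfa between these groups were -0.43 ± 0.20 (unadjusted p = 0.0496, adjusted p = 0.767) and -0.42 ± 0.22 (adjusted p = 0.767).

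The interaction of tumour and training, the test of whether the tumour difference itself depended on training, called no member with edgeR and 0.0235% of genes, and 2 members (Apln and Vegfa) had an unadjusted p under 0.05, where 14.4% of genes had. It was 0.99 ± 0.28 (log2, SE) for Apln (edgeR, unadjusted p = 0.00427, adjusted p = 0.286), 0.98 ± 0.31 for Vegfa (adjusted p = 0.288) and -1.31 ± 0.65 for Angpt2 (adjusted p = 0.374). Of the members DESeq2 called Apln alone (1.02, adjusted p = 0.0373), where 2.11% of genes were called. With tumour 3 left out, edgeR called 6 members, where 30.1% of genes were called. With tumour 1 and 2 left out it called none, where 0.246% of genes were called, and the value of Apln was 1.26 ± 0.28 (adjusted p = 0.138).

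Of the receptors and partners of these ligands, 1 of 19 tested genes was called higher in tumour against control and none lower, where 5.33% of all genes were called higher. That gene was Itgb3, an integrin subunit of platelets and sprouting vessels, at 13.26, 17.4 and 4.05 CPM in tumour 1, 2 and 3 and 2.10 to 3.54 in the controls, and it rose by 2.02 ± 0.46 (log2, SE; edgeR, adjusted p = 0.0391), a change that was 0.51 (adjusted p = 0.636) without tumour 1 and 2. With training in tumour-bearing mice Nrp1, a co-receptor of VEGF-A, rose by 1.14 ± 0.26 (adjusted p = 0.0357), from 67.1, 117 and 110.2 CPM to 224.5, 199 and 226.7, and Itgb3, Itga5 and Src fell. These 4 calls were lost without tumour 1 and 2, where the change of Nrp1 was 0.96 (adjusted p = 0.174). Src, a kinase downstream of VEGFR2, was 44.8 and 23.8 CPM in tumour 1 and 2 and 4.88 in tumour 3. Once tumour 1 and 2 were left out, Nrp2 and Plxnd1 changed by -1.07 and -1.29 against control, on tumour 3 alone. Nrp2 is a VEGF-C co-receptor and Plxnd1 a semaphorin receptor of endothelial cells. With all libraries their changes were -0.17 and -0.21, and both turned positive under cardiomyocyte and endothelial scaling. Cdh5, the endothelial cadherin, was -0.61 ± 0.35 (adjusted p = 0.226).

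Of the other vessel-acting ligands 1 of 18 tested was called lower in tumour against control and none higher. Over all genes 1.46% were called lower and 5.33% higher. Pdgfa, a platelet-derived growth factor, was 15.2, 15.9 and 17.1 CPM in the tumour group and 20.6 to 32.2 in the controls, and fell by 0.70 ± 0.17 (log2, SE; edgeR, adjusted p = 0.0441), with -0.59 (adjusted p = 0.290) without tumour 1 and 2. Thbs2, an inhibitor of vessel growth, was 21.2, 39.2 and 59.6 CPM in tumour 1, 2 and 3 and 23.4 to 31.0 in the controls. Its change was 0.53 (edgeR, adjusted p = 0.215) with all libraries and 1.11 with tumour 3 as the lone tumour library. The most abundant uncalled ligands, Cxcl12 and Fgf1, had changes of -0.69 and -0.40. Of the Notch and tip-cell genes 2 of 22 were called lower and none higher: Nrarp, a target and inhibitor of Notch, fell by 1.57 ± 0.39 (adjusted p = 0.0440), with -0.86 (adjusted p = 0.290) without tumour 1 and 2, and Unc5b, a netrin receptor of endothelial tip cells, fell by 1.01 ± 0.24 (adjusted p = 0.0417). The controls had 41.1 to 45.2 CPM of Unc5b and tumour 1, 2 and 3 had 14.3, 30.3 and 18.7, so that tumour 3 shared its low level. With tumour 3 as the lone tumour library the change of Unc5b was -1.17. Both signs, of Pdgfa and of Unc5b, turned under cardiomyocyte scaling. The medians of the 2 lists were -0.27 and -0.49, beside 0.11 over all genes. With training in tumour-bearing mice, Hey1, a Notch target, changed by -0.57 (edgeR, adjusted p = 0.391) with all libraries and by -1.39 against tumour 3 alone.

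Among the genes of oxygen sensing and the hypoxia response, 4 of 23 tested rose and 1 fell in tumour against control, with a median change of -0.05, where 5.33% of all genes rose and 1.46% fell. Car9, also on this list, did not pass the filter on low counts and was not tested. It ranged from 0 to 82.9 CPM in the tumour group, with a mean of 38.8, and was at most 0.39 CPM in the other groups. Slc2a1, the glucose transporter GLUT1, was 87.5, 63.7 and 34.7 CPM in tumour 1, 2 and 3 and 22.2 to 29.2 in the controls, and rose by 1.32 ± 0.27 (log2, SE; edgeR, adjusted p = 0.0391). Pfkfb3, which makes an activator of glycolysis, rose by 1.44 ± 0.31, the histone demethylase Kdm3a by 1.33 ± 0.32 and the early response gene Ier3 by 0.93 ± 0.22. P4ha2, a collagen prolyl hydroxylase, fell by 0.75 ± 0.15 (adjusted p = 0.0391), a change that turned to 0.54 under cardiomyocyte scaling. Tumour 3 was at 14.6 CPM of Pfkfb3, 40.0 of Kdm3a and 53.4 of Ier3, each above all controls, and at 33.1 of P4ha2, below them. Without tumour 1 and 2 these calls were lost, at 0.49 for Slc2a1 (adjusted p = 0.263), 0.64 for Pfkfb3 (0.403), 0.48 for Kdm3a (0.479), 0.95 for Ier3 (0.125) and -0.62 for P4ha2 (0.0911). In Slc2a1, Pfkfb3 and Kdm3a the order of the tumour libraries was that of their melanocyte sums, and the part of these in the result was not tested. Bnip3, a mitophagy receptor, changed by 0.79 ± 0.27 (log2, SE; edgeR, adjusted p = 0.0793) with all libraries, which was not called, and by 1.40 without tumour 1 and 2. The tumour libraries stood at 327.3 CPM of Bnip3 or more, against 241.0 to 300.1 in the controls. The highest was tumour 3, at 695.5 CPM. Vegfa, itself a classical hypoxia target, was at 209.3 CPM in the same library. The oxygen sensor Egln1 and the factor Epas1 had changes of -0.57 and -0.55 with all libraries and 0.17 and 0.13 without tumour 1 and 2. With training in tumour-bearing mice, Slc2a1, Kdm3a and Ier3 fell by 1.25, 1.17 and 0.93, calls that were lost without tumour 1 and 2. Against tumour 3 alone the change of Bnip3 was -1.13.

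By likeness of pattern, taken as Pearson's r of log2 levels over 11509 genes, the 5 genes most like Apln over the 12 libraries were Papln (r = 0.966), Sez6l2 (0.956), Vash1 (0.921), Itsn1 (0.904) and Kif6 (0.902). Over the 10 libraries without tumour 1 and 2 they were Prnd (0.972), Ank1 (0.965), Vash1 (0.961), Col15a1 (0.960) and Myl6 (0.957). Among those 10, tumour 3 stood apart in Apln, at 10.96 CPM against 20.0 or more, so these r values lean largely on that 1 library. Vash1, which encodes vasohibin 1, an endothelial inhibitor of vessel growth, was the 1 gene in both lists. The genes most like Vegfa were Eif1b (0.963), Iqsec3 (0.957), Znrf1 (0.950), Gpr4 (0.949) and Car7 (0.947) over 12 libraries and Clip2 (0.948), Slc22a23 (0.944), Iqsec3 (0.927), Rhbdl3 (0.921) and Colq (0.915) over 10. These values describe libraries that share their groups and carry no test.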

How the data were processed

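RNA of 12 heart libraries was sequenced after Trizol purification and a VAHTS Universal V8 preparation for MGI instruments, per the labels' protocols. The authors deposited 1 table of estimated counts per gene, not normalized. HISAT2 2.2.1 and featureCounts, and the builds GRCm39 and mm10, are named in the submitters' processing notes. The sources used here do not give the build of the table, the annotation or the strand setting. Overlapping and antisense genes therefore cannot be told apart.

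Estimated counts were rounded to whole numbers, and 24 symbols that had become dates were restored from the gene ID. Levels are CPM scaled by the trimmed mean of M values, where 3 counts are 0.225 to 0.339 CPM before scaling, and their precision covers counting error only. The main test was edgeR 4.0.16 (R 4.3.3), its quasi-likelihood model fitted to all 12 libraries, with 8 residual degrees of freedom. The default filter left 12778 genes, and a call needs a p, adjusted over them by Benjamini-Hochberg, of less than 0.05. The SE is the log2 change divided by the square root of F. Scaling to the summed cardiomyocyte or endothelial markers, DESeq2 1.42.0, other filters, left-out libraries and a replicate block were among 23 alternatives. The one without control 2 and 3 was chosen after seeing the data. On counts simulated for tumour against control with the spread of the 12 libraries (12778 genes), 44% of genes raised 2-fold and 18% of genes lowered 2-fold were called, and 98% and 92% of those changed 4-fold.

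Replicates of every group differed by more than sampling noise, by a chi-square per gene of 3.67 to 369.5, and none was merged. All 9 members are named whatever their result. Genes of the 4 pathway lists are named where called in a comparison described, with the most abundant uncalled ones. The members and lists were chosen with earlier results of these data known.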

Additional observations from a re-analysis of the deposited data

How the results depend on the processing

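Over 62 reported results and their alternatives, 984 values kept their direction and side of the threshold, 345 lost the call, 39 gained one and 55 changed sign. Apln in tumour against control was called in 10 of 23 alternatives, Vegfa in 7 and Aplnr in 5. In the simulation 44% of genes raised 2-fold and 18% of those lowered 2-fold were called.

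Over all genes, the number called in tumour against control ran from 4 to 7044 when 1 library was left out, and in tumour trained against tumour from 3 to 6619, both highest without tumour 3. In tumour against control the number of members called was 4 with DESeq2 and with library size alone (17.8% and 15.1% of all genes). It was 0 with endothelial scaling (0.282%), 1 with the replicate block (0.125%) and 0 with only the compared groups (0.0240%). No member was called without control 2 and 3. When 1 library was left out the number was 0 to 7, with 7 without tumour 3 (53.0%). In tumour trained against tumour it was 1 with cardiomyocyte scaling (57.0% of all genes) and 0 with endothelial scaling (0.0704%). It was also 0 with the replicate block (0.141%) and with only the compared groups (0.0159%). No member was called without control 2 and 3, or without tumour 1 and 2. When 1 library was left out the number was 0 to 7, again 7 without tumour 3 (49.8%). In tumour trained against control it was 3 with only the compared groups (Angpt1, Kdr and Vegfa), where 20.4% of all genes were called. In the interaction it was 1 with DESeq2 (2.11% of all genes) and 0 to 6 when 1 library was left out, with 6 without tumour 3 (30.1%). The replicate block called 0 members in the other comparisons. Same-numbered libraries did not deviate together (correlation -0.326 to 0.282, over 0.1 in 3 of 18 pairs), so the numbers were not taken to pair the libraries. The causes of these changes were not tested.

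Under cardiomyocyte scaling, tumour against control turned to 0.25 for Apln, 0.0052 for Vegfa, 0.16 for Vegfb, 1.31 for Vegfc, 0.50 for Flt1, 0.67 for Pdgfa, 0.22 for Unc5b, 0.54 for P4ha2, 0.30 for Cdh5, 1.51 for Plxnd1, 0.24 for Cxcl12, 0.58 for Fgf1, 0.25 for Notch1, 0.37 for Egln1, 0.33 for Epas1, 0.41 for Nrp1 and 1.17 for Nrp2. Tumour trained against tumour turned to -0.60 for Apln, -0.34 for Vegfa, -0.23 for Vegfb, -1.37 for Vegfc, -0.54 for Flt1 and -0.24 for Angpt1, and the interaction to -0.51 for Apln and -0.19 for Vegfa. Under endothelial scaling Vegfc turned to 0.48 and -0.45 in these 2 comparisons, Plxnd1 to 0.60 and Nrp2 to 0.40. With library size alone Vegfc turned to 0.042 and -0.14, Plxnd1 to 0.057 and Nrp2 to 0.0496. Without tumour 1 and 2, tumour against control turned to 0.17 for Flt1, -0.68 for Angpt2, 0.15 for Fgf1, 0.17 for Egln1 and 0.13 for Epas1, tumour trained against tumour to -0.073 for Vegfb, -0.29 for Flt1 and 0.51 for Angpt2, and the interaction to 0.35 for Angpt2. When 1 library was left out, Plxnd1 ran from -0.58 to 0.082 and Nrp2 from -0.80 to 0.084 against control, and with training in tumour-bearing mice Vegfc ran from -0.019 to 0.15, Flt1 from -0.032 to 0.79 and Hey1 from -1.01 to 0.12, each turning without tumour 3 except Flt1, which turned without tumour 1. Without control 2 and 3, Vegfc turned to 0.16 in tumour against control, trained against control turned to -0.16 for Aplnr, 0.11 for Vegfa and -0.066 for Kdr, and tumour trained against control to -0.62 for Aplnr. Aplnr in that comparison ran from -0.20 to 0.70 when 1 library was left out, and was negative without control 2, control 3 or tumour trained 1.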
